A study of Mus musculus with 22 samples.

Results

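Transcripts of 4 genes used by dividing cells, Ttk, Ndc80, Ccnb2 and 2810417H13Rik (now named Pclaf), were followed under 5 treatments in G-MDSCs, the granulocytic kind of myeloid-derived suppressor cell, isolated from mouse mammary tumours. G-MDSCs are cells of the neutrophil lineage that can restrain T cells. The 4 genes were chosen by name, for their roles in cell division, from the 655 endogenous genes of the panel. Earlier results of these data were known at that choice, and all 4 genes passed the filter on low values. Each sample was read on the NanoString nCounter system, which counts fluorescent barcodes bound to each transcript without amplification.

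The tumours grew in female neu-N mice of 7 to 8 weeks (strain given as FVB-Neu-N), which carry a rat neu (HER2) transgene. All mice received 50000 cells of the line NT2.5 in the mammary fat pad, and treatment started after 3 days and ran for 3 weeks. Vehicle mice (6 samples) received 0.5% methylcellulose and isotype antibodies. All other mice were dosed by mouth each day with 5 mg/kg of entinostat, which blocks class I histone deacetylases. Of these, 4 samples came from entinostat alone, 4 from entinostat plus anti-PD-1 and 4 from entinostat plus anti-CTLA-4. The remaining 4 came from mice that received entinostat with the 2 antibodies together, the triple combination. Each antibody blocks a checkpoint receptor of T cells, and mice received 100 µg of it 2 times weekly. No group here received an antibody without entinostat, and whether any of these mice received the anti-HER2 antibody used in part of the work is unknown. The labels do not tie the samples to separate animals, so p-values measure the spread between these samples, which may be technical.

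A cell that copies its DNA and divides switches on waves of genes, first those for replication and later those for the spindle and its checkpoint. Many late genes are held off in resting cells by a repressor complex that binds a short promoter motif, the cell cycle genes homology region (CHR), often beside CCAAT boxes, whereas replication genes often carry E2F sites. Neutrophils pass through their divisions as precursors in the bone marrow, and mature neutrophils no longer divide. Tumour cells, by contrast, divide in place.

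The promoters of the 4 genes are shown because these motifs are what mitotic and replication genes are known to share and the choice of genes did not use them. All 4 genes were found among the RefSeq promoters of mouse build GRCm38.p6, which run from 250 bases before to 50 bases after each start. Each line gives the last 100 bases before the start, 5′ to 3′ on the strand of the gene, with CCAAT boxes of either strand in capitals.
Ttk: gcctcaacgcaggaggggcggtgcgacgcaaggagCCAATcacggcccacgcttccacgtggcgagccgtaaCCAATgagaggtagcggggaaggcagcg
Ndc80: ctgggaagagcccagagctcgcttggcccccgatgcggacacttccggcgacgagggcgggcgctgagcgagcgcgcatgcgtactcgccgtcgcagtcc
Ccnb2: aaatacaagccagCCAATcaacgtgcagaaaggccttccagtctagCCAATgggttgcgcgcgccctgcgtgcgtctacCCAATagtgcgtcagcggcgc
2810417H13Rik: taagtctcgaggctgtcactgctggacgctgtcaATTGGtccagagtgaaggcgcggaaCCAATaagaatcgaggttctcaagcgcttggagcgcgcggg

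These stretches lie at chr9:83834589-83834688 (plus strand, Ttk), chr17:71526858-71526957 (minus strand, Ndc80), chr9:70421555-70421654 (minus strand, Ccnb2) and chr9:65890223-65890322 (plus strand, 2810417H13Rik). The CHR (TTTGAA or TTCGAA, either strand) stood just after the annotated start in Ttk, Ndc80 and Ccnb2, and the 26 bases around it are shown with the motif in capitals.
Ttk: gcggggaaatTTCAAAcgtgtttccg
Ndc80: aactttaaaaTTCAAAccgccttggg
Ccnb2: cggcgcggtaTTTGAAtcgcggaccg

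Counting the first transcribed base as 1, the motif began at base 8 in Ttk, base 30 in Ndc80 and base 5 in Ccnb2. Over the whole window of 300 bases, Ccnb2 held a CHR at a further place, 167 bases before the start. CCAAT boxes numbered 3 in Ccnb2, 2 in Ttk, 2 in 2810417H13Rik and 0 in Ndc80. The window of 2810417H13Rik held no CHR, and it was the only one of the 4 with an E2F site (TTTCCCGC, TTTCGCGC, TTTGCCGC or TTTGGCGC, either strand). For scale, 19.2% of the 32851 promoter windows in the table held a CHR, 37.4% a CCAAT box, 7.53% both and 2.27% one of the E2F words. A match describes the letters and is not evidence that a factor binds there.

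Values are the deposited normalized counts, in which a sample's barcode counts are multiplied by a fixed factor, and log2 fold changes are on the scale of log2(normalized count + 1). The 22 samples held 23296 to 443796 barcode counts over the panel, with a median of 179364. Triple combination sample 2 held the fewest, and 1 barcode there was worth 9.78 normalized counts. Samples were run on 2 cartridges. The first held vehicle samples 1, 2 and 4, triple combination sample a, and the entinostat and entinostat plus anti-PD-1 groups entire. The second held the rest, so entinostat plus anti-CTLA-4 shared no cartridge with entinostat or with entinostat plus anti-PD-1. By its place on the cartridge, triple combination sample a stood among vehicle samples and vehicle sample 3 among triple combination samples, and the differences of Ttk, Ndc80 and Ccnb2 between the triple combination and vehicle are also given without both.

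The isolates were checked against their label. S100a9 and S100a8, calgranulins abundant in neutrophils, reached medians of 10419 and 5653 normalized counts, whereas Ly6g, the gene of the surface protein used for the selection, lay between 1.74 and 30.2 with a median of 6.40, near background. Other cell types were represented as well. The epithelial genes Cdh1 (E-cadherin) and Lamb3 (a laminin chain) had medians of 904 and 800. Of the remaining lists, the leading genes had medians of 1129 for Tyrobp and 657 for Laptm5 (pan-leukocyte), 193 for C1qa (macrophage), 457 for Col11a1 and 205 for Fn1 (fibroblast and matrix), 208 for H2-Ab1 and 56.3 for Itgax (dendritic cell) and 113 for Flt1 (endothelial), and Apoe, also of the macrophage list, ran from 225 to 2347. Cd34, of the precursor and endothelial lists, had a median of 74.0 and Kit one of 18.1. The lymphocyte genes Nkg7 and Ms4a1 had medians of 4.65 and 3.03. Of 6 granulocyte precursor genes on the panel, only Cd34 passed the limit for testing described next, and Elane, Mpo, Ctsg, Kit and Fcnb did not, although the plain means of Elane and Kit in the triple combination were 43.2 and 39.2. In these mixed isolates, fewer cells of a type and less RNA per cell cannot be told apart, and the values below do not say which cells held the 4 transcripts.

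All 4 genes were measured at low counts. Background was judged by 8 negative control barcodes with no target, which held 1 to 16 counts, and the limit for testing a gene was a group mean of log2 values above that of 29.3 normalized counts, which is the mean plus 2 SD of the controls on the log2 scale. Ccnb2 lay farthest above background, at 6.61 to 91.6 times the mean of the negative controls of the same sample. Ndc80 lay nearest to it. Its log2 mean passed the limit in entinostat and in the triple combination and in no other group, so its place among the tested genes came from the groups where it was high. For this reason its differences are given below as descriptions and no test of them is read as support. In triple combination sample 2, Ttk had 7 counts, Ndc80 5 and 2810417H13Rik 5, against up to 7 for a negative control, and none of the 3 exceeded the highest control there. In the other 21 samples each of the 4 genes exceeded every negative control.

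**Figure D1:**
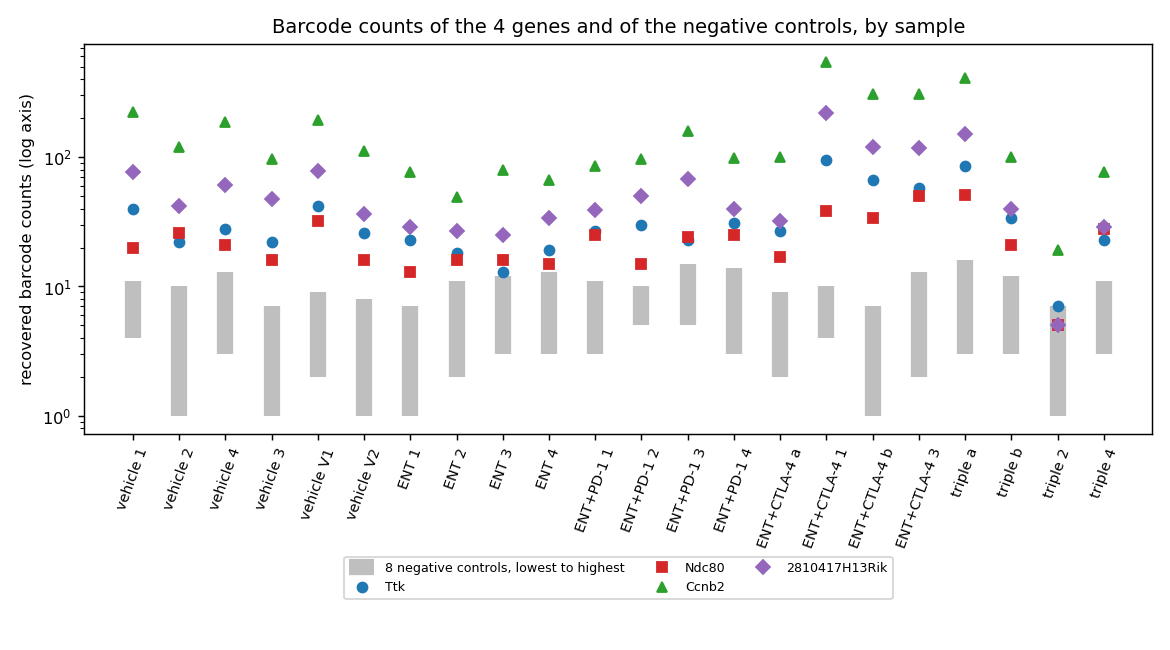
Recovered barcode counts (log axis) of the 4 genes in each of the 22 samples, with grey bars from the lowest to the highest of the 8 negative controls. ENT is entinostat, and PD-1 and CTLA-4 stand for the antibodies against them. Ccnb2 stands clear of the bars in every sample, and in triple combination sample 2, with 23296 counts in all, Ttk, Ndc80 and 2810417H13Rik lie within the bar.

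Ttk encodes the kinase Mps1, which starts the spindle checkpoint at kinetochores that lack microtubules. Its normalized count was highest in the triple combination, at 44.9, 57.5, 68.4 and 47.5 in samples a, b, 2 and 4. In vehicle it ran from 24.3 to 39.6 with a median of 34.0. The highest value elsewhere was 44.7, in entinostat plus anti-PD-1 sample 4, next to the 44.9 of triple combination sample a. Counting error alone gave sample a a 95% interval of 35.9 to 55.6 (exact Poisson). The 68.4 of sample 2 was 7 barcode counts, which did not exceed the highest negative control there. How many of the 420 tested genes separate the triple combination from the other groups was not counted.

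The means of Ttk in normalized counts were 54.6 ± 10.7 (SD, n = 4) in the triple combination and 32.6 ± 6.30 (SD, n = 6) in vehicle. Entinostat gave 40.8, 41.8, 24.5 and 42.7 in samples 1 to 4, entinostat plus anti-PD-1 gave 40.4, 43.8, 22.1 and 44.7, and entinostat plus anti-CTLA-4 gave 39.9, 38.0, 38.3 and 35.6 in samples a, 1, b and 3. The means of these groups were 37.4 ± 8.68, 37.7 ± 10.6 and 37.9 ± 1.76 (SD, n = 4 each), so vehicle and each of these 3 groups differed by less than the larger of their SDs. In entinostat and in entinostat plus anti-PD-1, 1 sample of 4 lay below most vehicle samples and the other 3 above all of them.

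Ttk in the triple combination exceeded vehicle by 0.73 ± 0.21 (SE) in log2 fold change, with a 95% interval of 0.30 to 1.16. The exact two-sided permutation test gave p = 0.0048, which is the smallest it can give, before any adjustment. There were 44 such tests on the 4 genes, Ndc80 included, of which 8 fell under 0.05. Over all 420 genes tested with limma the adjusted p was 0.281. In that comparison 0 of 420 genes (0%) were called, that is, had an adjusted p under 0.05, by limma and by edgeR with the deposited scaling, and 59 had an unadjusted p under 0.05. The difference was 0.66 on the first cartridge, which holds a single triple combination sample, a, and 0.63 on the second, and was 0.86 without vehicle sample 3 and triple combination sample a. Leaving out single samples moved it between 0.62 and 0.82, and it was lower under other scalings, at 0.50 with samples centred on their median, 0.41 with TMM factors and 0.24 after quantile normalization.

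Ndc80 (also Hec1) encodes a subunit of the kinetochore complex that grips the ends of spindle microtubules. In the triple combination its normalized count was 27.0, 35.5, 48.9 and 57.9 in samples a, b, 2 and 4, and in vehicle 17.7 to 30.6 with a median of 24.6. The groups overlapped through triple combination sample a, which lay below the highest vehicle sample. The means were 42.3 ± 13.7 (SD, n = 4) and 23.9 ± 5.08 (SD, n = 6).

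The other groups lay between or below. Ndc80 was at 23.0, 37.1, 30.1 and 33.7 normalized counts in entinostat samples 1 to 4, at 37.4, 21.9, 23.0 and 36.03 in entinostat plus anti-PD-1, and at 25.1, 15.2, 19.7 and 30.7 in entinostat plus anti-CTLA-4 samples a, 1, b and 3. Their means were 31.0 ± 6.04, 29.6 ± 8.27 and 22.7 ± 6.71 (SD, n = 4 each). Neighbours in the order of means, from entinostat plus anti-CTLA-4 through vehicle, entinostat plus anti-PD-1 and entinostat, differed by less than the larger of their SDs.

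Between the triple combination and vehicle, a group in which Ndc80 was not above the limit, the log2 means differed by 0.77. It was 0.28 after quantile normalization, 0.32 within the first cartridge, with its single triple combination sample, 0.84 within the second, and 1.00 without vehicle sample 3 and triple combination sample a. Adding anti-PD-1 to entinostat plus anti-CTLA-4 gave a difference of 0.86 for this gene, again from a group where it was not above the limit, and 0.17 after quantile normalization. In that comparison 0 of 420 genes (0%), and so 0 of the 4, were called by limma and by edgeR, although 115 had an unadjusted p under 0.05. The interaction of the antibodies under entinostat, that is, whether the effect of one depended on the other, also called 0 of 420 genes (0%) by limma and by edgeR, with 81 at an unadjusted p under 0.05.

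Depth moved with Ttk and Ndc80 on the deposited scaling, and with 2810417H13Rik after subtraction of the negative controls. Over the 22 samples the log2 of the total barcode count correlated with Ttk at r = -0.54 (Spearman -0.49, permutation p = 0.0116, adjusted 0.0303). With Ndc80 r was -0.63 (Spearman -0.59), a description only, since that gene was tested through the groups where it was high. Without triple combination sample 2 and entinostat plus anti-CTLA-4 sample 1, the samples with the fewest and the most counts, r was -0.35 and -0.46. After the mean of the negative controls of each sample was subtracted, r was -0.15 and -0.21, and the triple combination exceeded vehicle by 0.63 in Ttk (adjusted p = 0.366) and by 0.64 in Ndc80. 2810417H13Rik went the other way, at r = 0.44 (Spearman 0.32, permutation p = 0.0348, adjusted 0.0754), 0.19 without the same samples, and 0.76 (adjusted permutation p = 0.0016) after subtraction of the negative controls. Ccnb2 had r = 0.24 (Spearman 0.32, permutation p = 0.289, adjusted 0.406), 0.51 without the same samples and 0.38 after that subtraction. Within the first and second cartridges its r was 0.68 and 0.19. There r was -0.24 and -0.81 for Ttk, -0.36 and -0.74 for Ndc80, and 0.15 and 0.64 for 2810417H13Rik. Entinostat samples held 107446 to 162080 barcode counts. Entinostat plus anti-CTLA-4 samples a, 1, b and 3 held 165662, 443796, 320173 and 309365. With samples centred on their median, r was -0.01 for Ttk, 0.47 for Ccnb2 and 0.59 for 2810417H13Rik. The part of depth in these differences was not tested further.

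**Figure D2:**
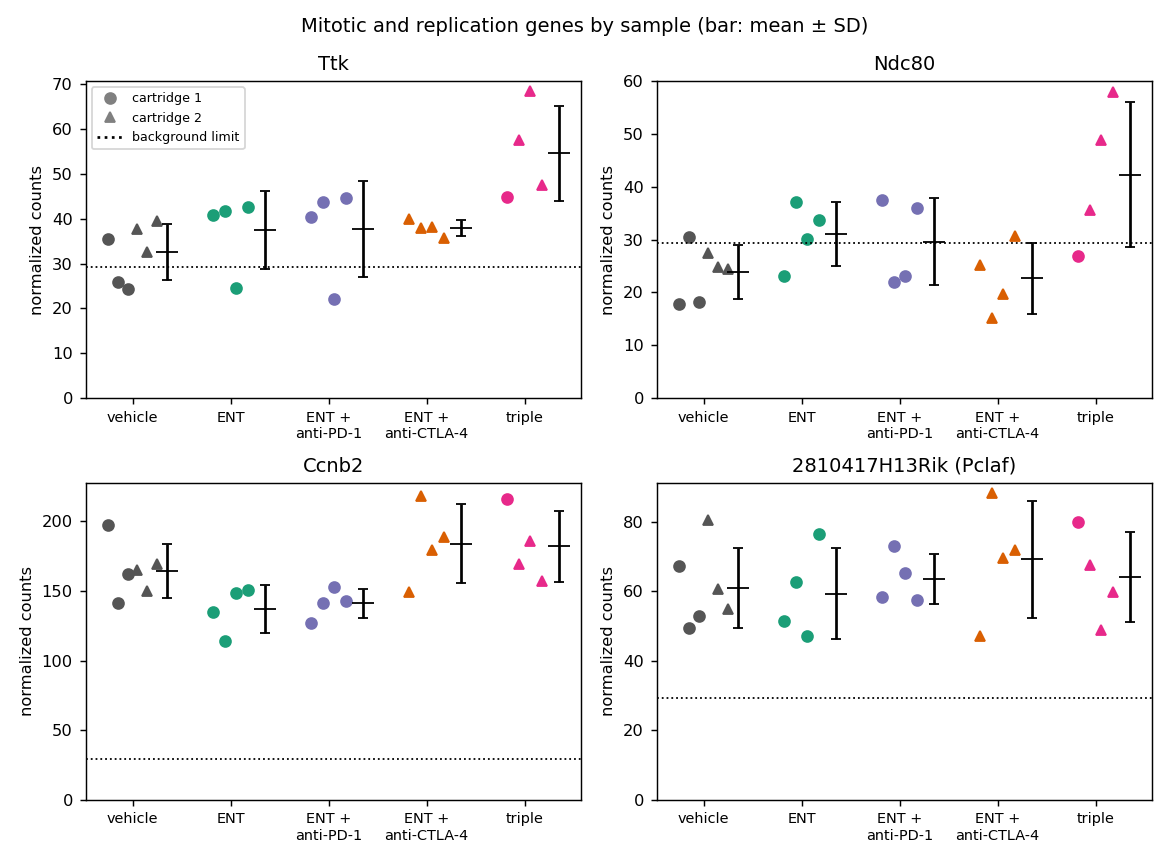
Normalized counts of the 4 genes by group (ENT, entinostat), 1 point per sample, with circles for the first cartridge and triangles for the second. Black bars are the mean ± SD and the dotted line is the background limit of 29.3 normalized counts. For Ttk the lowest triple combination sample, at 44.9, lies next to the highest other sample, at 44.7. The mean of Ccnb2 is lower in entinostat and entinostat plus anti-PD-1 than in the groups with anti-CTLA-4.

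Ccnb2 encodes cyclin B2, a B-type cyclin that activates the kinase Cdk1 at entry into mitosis. It was at 135, 114, 149 and 151 normalized counts in entinostat samples 1 to 4 and at 149, 218, 179 and 189 in entinostat plus anti-CTLA-4 samples a, 1, b and 3. The groups overlapped through entinostat plus anti-CTLA-4 sample a, which lay below entinostat sample 4. The means were 137 ± 17.0 and 184 ± 28.4 (SD, n = 4 each).

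Adding anti-CTLA-4 to entinostat gave the single call among the 48 tests of the 4 genes in 12 comparisons. Ccnb2 was higher by 0.42 ± 0.14 (SE, 95% interval 0.12 to 0.72) in log2 fold change, with an adjusted p of 0.0237 from limma. In that comparison 48.3% of the 420 genes were called, 24 higher and 179 lower, so a call by itself was common there and a rise was not. Ttk (0.05 ± 0.23), Ndc80 (-0.46 ± 0.26) and 2810417H13Rik (0.21 ± 0.20, SE) were not called. The exact two-sided permutation test gave p = 0.0571 for Ccnb2, where 0.0286 is the smallest that 4 against 4 allows.

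Several settings ended this call. The adjusted p was 0.0795 when the fit held only these 2 groups, and 0.0898, 0.0959, 0.0510 and 0.0621 without entinostat sample 2 or entinostat plus anti-CTLA-4 sample 1, b or 3. With the mean of Cdh1 and Lamb3 as a covariate, the difference was 0.24 with an adjusted p of 0.437. Cartridge could be entered as a block through the vehicle and triple combination samples, and the difference was then 0.56 (adjusted p = 0.0347), but no cartridge held both groups.

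The median log2 fold change over all tested genes was itself shifted in this comparison, to -0.67, and in others, to 0.50 for entinostat, 0.29 for entinostat plus anti-PD-1, -0.13 for entinostat plus anti-CTLA-4 and 0.30 for the triple combination, each against vehicle. Relative to it, that is, with each sample centred on the median of its genes, Ccnb2 rose by 1.14 with anti-CTLA-4 added to entinostat (adjusted p = 0.00645), Ttk by 0.77 (adjusted p = 0.0304) and 2810417H13Rik by 0.93 (adjusted p = 0.0271). Ndc80 turned from -0.46 to 0.26 with no call. With this centring 225 of all 420 genes were called in the same comparison, so a call by itself was common there. No source says which scaling is right for these isolates.

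Entinostat alone and entinostat plus anti-PD-1 had the lowest Ccnb2 means. Vehicle ran from 141 to 197 normalized counts with a median of 163 and a mean of 164 ± 19.4 (SD, n = 6), and entinostat overlapped with it. The log2 fold change was -0.26 ± 0.13 (SE, 95% interval -0.53 to 0.01), with an adjusted p of 0.112 from limma and an exact two-sided permutation p = 0.0381. Against 40.0% of genes called in that comparison, 152 higher and 16 lower, 0 of the 4 were called by limma or edgeR, and none of the 4 had an unadjusted p under 0.05 from limma. Centred on the median, Ccnb2 fell by 0.80 with an adjusted p of 0.0252, where 176 of all 420 genes were called.

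Entinostat plus anti-PD-1 held Ccnb2 at 127, 142, 152 and 143 normalized counts in samples 1 to 4, a mean of 141 ± 10.4 (SD, n = 4). The log2 fold change against vehicle was -0.21 ± 0.13 (SE), with an adjusted p of 0.263. Of all genes 21.9% were called there and 0 of the 4. Anti-PD-1 added to entinostat changed Ccnb2 by 0.05 ± 0.14 (SE) in log2 fold change, and 0 of 420 genes (0%) were called by limma and by edgeR, with 7 at an unadjusted p under 0.05. Anti-CTLA-4 against anti-PD-1, both under entinostat, gave 0.37 ± 0.14 (SE) for Ccnb2 and an adjusted p of 0.0559, where 31.0% of genes were called and 0 of the 4. That value passed the threshold after subtraction of the negative controls (adjusted p = 0.0499), and again without vehicle sample 1, vehicle sample 2, triple combination sample a or entinostat plus anti-CTLA-4 sample a.

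The triple combination held Ccnb2 at 216, 169, 186 and 157 normalized counts in samples a, b, 2 and 4, a mean of 182 ± 25.4 (SD, n = 4). The highest sample of entinostat and entinostat plus anti-PD-1 was at 152, and the triple combination overlapped with vehicle. Both antibodies added to entinostat gave a log2 fold change of 0.41 ± 0.14 (SE) for Ccnb2, with an exact permutation p = 0.0286 and an adjusted p of 0.334. Anti-CTLA-4 added to entinostat plus anti-PD-1 gave 0.36 ± 0.14 (SE) and an adjusted p of 0.602. Without vehicle sample 3 and triple combination sample a these were 0.32 and 0.27. In each of these comparisons 0 of 420 genes (0%) were called by limma and by edgeR, with 53 and 33 at an unadjusted p under 0.05. Against vehicle the triple combination differed by 0.15 ± 0.13 (0.06 without vehicle sample 3 and triple combination sample a, and -0.09 with samples centred on their median) and entinostat plus anti-CTLA-4 by 0.16 ± 0.13 (SE), and for the latter comparison too 0 of 420 genes (0%) were called by limma and by edgeR, with 6 at an unadjusted p under 0.05.

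2810417H13Rik encodes a small protein that binds the replication clamp PCNA and is made while DNA is copied. Its normalized count was 49.4 to 80.7 in vehicle with a median of 57.7, and 51.4, 62.7, 47.1 and 76.5 in entinostat. It was 58.4, 73.0, 65.2 and 57.7 in entinostat plus anti-PD-1, 47.3, 88.3, 69.6 and 71.8 in entinostat plus anti-CTLA-4, and 79.8, 67.6, 48.9 and 59.9 in the triple combination. Every group overlapped with every other.

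The 5 means of 2810417H13Rik, 60.9 ± 11.5 in vehicle, 59.4 ± 13.1 in entinostat, 63.6 ± 7.15 in entinostat plus anti-PD-1, 69.3 ± 16.9 in entinostat plus anti-CTLA-4 and 64.1 ± 13.03 in the triple combination (SD), differed by less than 1 SD. Against vehicle the log2 fold changes had 95% intervals of -0.43 to 0.35, -0.32 to 0.46, -0.22 to 0.56 and -0.32 to 0.46 in that order, so differences within these bounds were not resolved by these samples. A test for any difference among the 5 groups called 33.1% of genes, and 0 of the 4, with adjusted p of 0.058 for Ccnb2, 0.083 for Ttk and 0.878 for 2810417H13Rik. That of Ndc80 is left out, since it was tested through the groups where it was high. The mean of all entinostat groups against vehicle called 0.714% of genes and 0 of the 4, with 0.33 ± 0.15 for Ttk, 0.33 ± 0.18 for Ndc80, -0.04 ± 0.10 for Ccnb2 and 0.07 ± 0.14 for 2810417H13Rik (log2 fold change ± SE).

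Of 73 other genes of mitosis and replication listed, 5 are on the panel. Described here are Top2a (a topoisomerase that untangles chromosomes), Birc5 (survivin, of the chromosomal passenger complex), Cdc20 (an activator of the anaphase-promoting complex) and Kif20a (a kinesin of cytokinesis). All 5 were above background, and 0 of their 60 tests in the 12 comparisons were called by limma, with 2 at an unadjusted p under 0.05. Top2a averaged 437 ± 69.6 normalized counts in vehicle (SD, n = 6) and 512 ± 134 in entinostat plus anti-CTLA-4 (SD, n = 4). The change nearest to a call was Birc5 with anti-CTLA-4 added to entinostat, 0.50 ± 0.23 (SE, adjusted p = 0.0766), and Ccnb2, Top2a (0.36) and Kif20a (0.32) had the same sign there, whereas Cdc20 had -0.13. In entinostat against vehicle the median of the 5 was -0.03 and that of the 4 genes 0.07, beside 0.50 over all tested genes.

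Genes that slow or gate the cycle held most of the calls among these 3 gene groups. Of 24 listed, 4 are on the panel, namely Cdkn1a (p21, a brake on cyclin-dependent kinases), Btg2 (an antiproliferative gene), Gadd45b (a stress and arrest gene) and Myc (a driver of growth). Cdkn1a was at 365 to 815 normalized counts in vehicle with a median of 430, and at 714 to 1150 in entinostat with a median of 880. It rose by 0.88 ± 0.23 (SE, adjusted p = 0.0104) in log2 fold change, Btg2 by 1.24 ± 0.26 (adjusted p = 0.00558) and Gadd45b by 1.50 ± 0.40 (adjusted p = 0.0104), whereas Myc was not called (0.36 ± 0.24). The same 3 genes rose in entinostat plus anti-PD-1 against vehicle, by 0.82, 1.21 and 1.63. Those calls held in 15, 17 and 16 of 22 fits with a sample left out and in 12, 14 and 13 of 16 other settings. All 3 were lost without vehicle sample 1 or 4 or without sample 1, 2 or 4 of entinostat plus anti-PD-1 (adjusted p up to 0.0862), Cdkn1a and Gadd45b also without vehicle sample V2 and Cdkn1a without vehicle sample V1, and within the first cartridge the adjusted p was 0.0825, 0.0707 and 0.0707. The 3 genes were lower when anti-CTLA-4 was added to entinostat, with log2 fold changes of -1.23, -1.45 and -1.84. They were lower by like amounts in anti-CTLA-4 against anti-PD-1 under entinostat, at -1.17, -1.42 and -1.97, which makes 12 calls among 48 tests, all in the 4 comparisons where 40.0%, 21.9%, 48.3% and 31.0% of all genes were called. Centred on the median, Cdkn1a in entinostat against vehicle was 0.34 and not called (adjusted p = 0.0789), while Btg2 (0.70) and Gadd45b (0.96) were. That centring called 176 of all 420 genes in entinostat against vehicle. The 4 comparisons that hold the 12 calls share samples, since entinostat enters the first and the third and vehicle the first and the second. With the epithelial mean as a covariate, Cdkn1a (adjusted p = 0.0950) and Gadd45b (adjusted p = 0.110) were not called in entinostat against vehicle and Btg2 was (adjusted p = 0.0272).

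**Figure D3:**
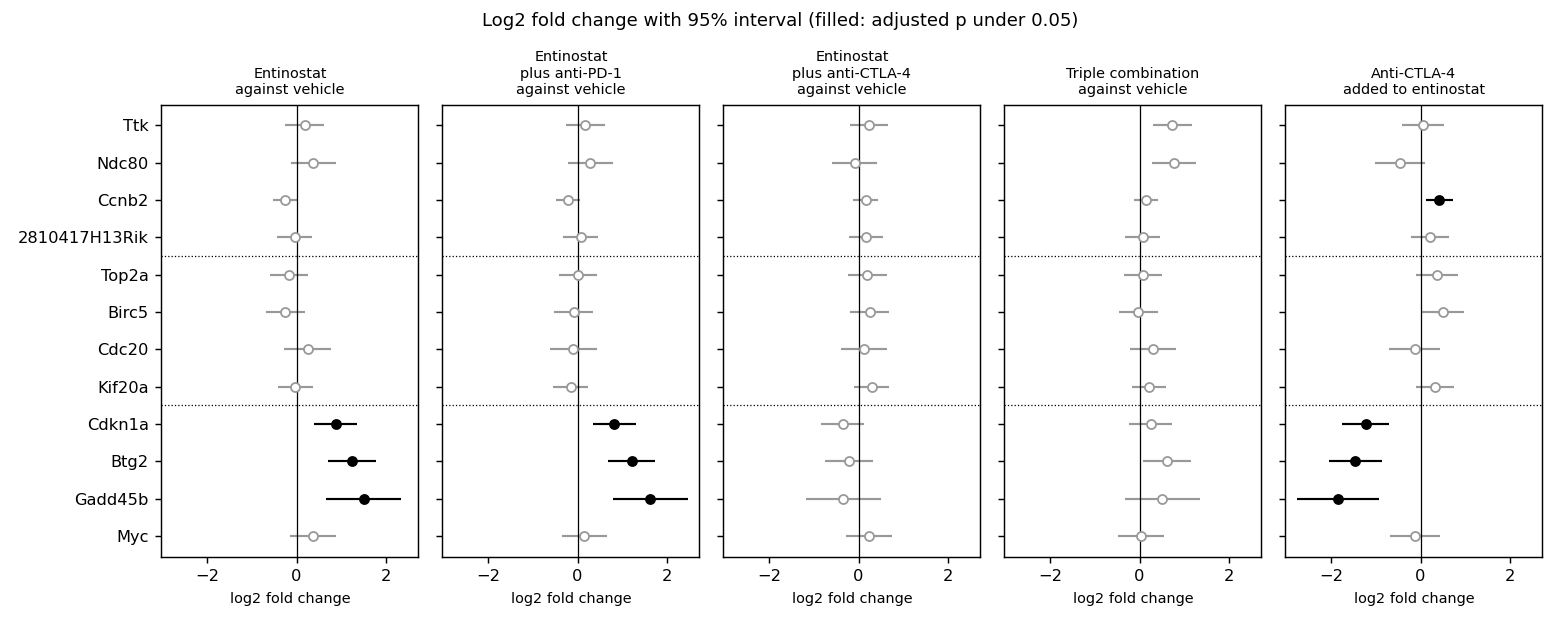
Log2 fold change with its 95% interval for the 4 genes (top), 4 other mitosis and replication genes (middle) and 4 genes that gate the cycle (bottom) in 5 comparisons, from limma over all 22 samples. Filled points have an adjusted p under 0.05: Ccnb2 with anti-CTLA-4 added to entinostat, and Cdkn1a, Btg2 and Gadd45b in 3 of the 5 panels. The intervals of Ndc80 are descriptions only, since it was tested through the groups where it was high.

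Marker lists of other cells moved with the same comparisons. Of 13 tested neutrophil genes, 13 rose in entinostat against vehicle with a median log2 fold change of 1.80, and 7 of 7 pan-leukocyte genes rose with a median of 1.49, beside the 40.0% of all genes called. In the same comparison 3 of 6 endothelial genes (median 1.96) and 1 of 3 dendritic cell genes rose, 1 of 2 epithelial genes fell, and 0 of 8 monocyte and macrophage genes were called. The log2 fold changes of these 8 ran from 0.32 to 1.67, with a median of 0.62 beside 0.50 over all tested genes. Among 5 tested genes of stromal cells and extracellular matrix, 1 was called higher and 2 lower. With anti-CTLA-4 added to entinostat, 48.3% of all genes were called. There 13 of 13 neutrophil genes (median -2.12) and 7 of 7 pan-leukocyte genes (median -2.04) were lower, and 2 of 2 epithelial genes were higher (median 0.58). Of endothelial genes 3 of 6 and of dendritic cell genes 1 of 3 were lower. No monocyte and macrophage gene was called. Their log2 fold changes ran from -1.77 to -1.02, with a median of -1.28 beside -0.67 over all tested genes. Of the 5 stromal and matrix genes 1 was higher and 1 lower. The 15 neutrophil genes on the panel summed to 6037 to 25470 normalized counts in vehicle, 21898 to 41968 in entinostat, 24135 to 31995 in entinostat plus anti-PD-1, 3615 to 22763 in entinostat plus anti-CTLA-4 and 15576 to 19913 in the triple combination. Cdh1 and Lamb3 summed to 1519 to 2418, 1397 to 1569, 1526 to 1919, 1454 to 2637 and 1408 to 2352 in the same order. Entinostat, with the lowest mean of Ccnb2, also held the lowest epithelial sum and the highest neutrophil sum of any sample. The part of this makeup in the level of Ccnb2 was not tested beyond the covariate.

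Ccnb2 was lower in samples with more neutrophil transcripts across the whole set. On the log2 scale, over 22 samples, Ccnb2 correlated with the neutrophil mean at r = -0.74 (Spearman -0.84, permutation p = 8.0e-05, adjusted 0.000832), and with the pan-leukocyte mean at r = -0.75 (Spearman -0.85, permutation p = 4.0e-05, adjusted 0.000832). It correlated with the mean of Cdh1 and Lamb3 at r = 0.61 (Spearman 0.58, permutation p = 0.00221, adjusted 0.00958). With the neutrophil mean, r was -0.68 without entinostat plus anti-CTLA-4 samples 1 and b, -0.74 within the first cartridge and -0.59 within the second, and -0.65 after group means were removed. 2810417H13Rik correlated with the epithelial mean at r = 0.53 (Spearman 0.60, adjusted permutation p = 0.0303 and 0.0178) and with the neutrophil mean at r = -0.41 (adjusted permutation p = 0.108).

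Adjustment ran over the 52 relations computed among these genes, lists and depth. Ndc80 went the other way on the deposited scale, at r = 0.58 with the neutrophil mean, 0.63 with the pan-leukocyte mean and -0.57 with the epithelial mean. It was tested through the groups where it was high, so no test of these relations is read as support. These 3 relations shrank to 0.28, 0.33 and -0.22 after subtraction of the negative controls, and turned to -0.16, -0.10 and 0.19 when samples were centred on their median. Ttk was related to none of the 3 (r = 0.08, 0.10 and -0.14) until samples were centred, when r became -0.56, -0.57 and 0.61. Centring takes the same sample median from the gene and the list, so these centred values are not read as relations.

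On the deposited scaling the 4 genes varied together only in part. Their 6 pairs had a median r of 0.16, from -0.34 (Ndc80 with Ccnb2) to 0.49 (Ttk with Ndc80), and 0 of the 6 had an adjusted permutation p under 0.05 for Pearson's r. For Ttk with Ndc80 that p was 0.0501, and it was 0.0269 for Spearman's rho of 0.55. Without entinostat plus anti-PD-1 sample 3 and triple combination sample 2, r was 0.36, and after group means were removed it was 0.21. Ndc80 was tested through the groups where it was high, so no test of its pairs is read as support. With samples centred on their median, 4 of the 6 pairs passed, at r = 0.88 for Ccnb2 with 2810417H13Rik, 0.68 and 0.65 for Ttk with each of these, and 0.52 for Ttk with Ndc80, so how far the genes move together depends on the scaling. Centring takes the same median from every gene of a sample, which by itself can make genes move together. Over all 36 pairs of the 4 genes and the 5 other mitosis genes, 29 passed after centring and 11 before. The centred values are therefore not read as a pattern of the 4 genes.

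On the deposited scaling the genes also differed in which other mitosis genes they followed. Ccnb2 correlated with Top2a at r = 0.72 (Spearman 0.72, adjusted permutation p = 0.00113), Kif20a at 0.70 (0.65, adjusted 0.00238) and Birc5 at 0.64 (0.58, adjusted 0.00879). 2810417H13Rik did so with Top2a at 0.75 (Spearman 0.71, adjusted permutation p = 0.000832), Birc5 at 0.67 (0.71, adjusted 0.00513) and Kif20a at 0.60 (0.60, adjusted 0.0139). For Top2a these relations held without the samples farthest from the median (0.60 for Ccnb2 and 0.72 for 2810417H13Rik), within the first cartridge (0.72 and 0.69), within the second (0.82 and 0.83) and after group means were removed (0.77 and 0.74). Samples high in one thus tended to be high in the other within groups, and a relation between group means was not tested.

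Ttk correlated with Cdc20 at r = 0.57 (Spearman 0.47, adjusted permutation p = 0.0153 and 0.0637), and r fell to 0.32 without entinostat plus anti-PD-1 sample 3 and triple combination sample 2, so it rests on those samples. Within the cartridges it was 0.38 and 0.77. Ndc80 was related to none of Top2a, Birc5, Cdc20 and Kif20a, with r from -0.44 with Birc5 to 0.34 with Cdc20 and adjusted permutation p of 0.0827 or more. As above, no test of Ndc80 is read as support. With samples centred on their median, Ttk had r of 0.66 with Top2a, 0.67 with Birc5, 0.72 with Cdc20 and 0.69 with Kif20a. The adjusted permutation p was 0.00158 or less for each. Ccnb2 and 2810417H13Rik then had r of 0.58 and 0.55 with Cdc20, and Ndc80 was again related to none of these 4. Centring takes the same sample median from both genes of a pair, so these values are not read as relations.

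**Figure D4:**
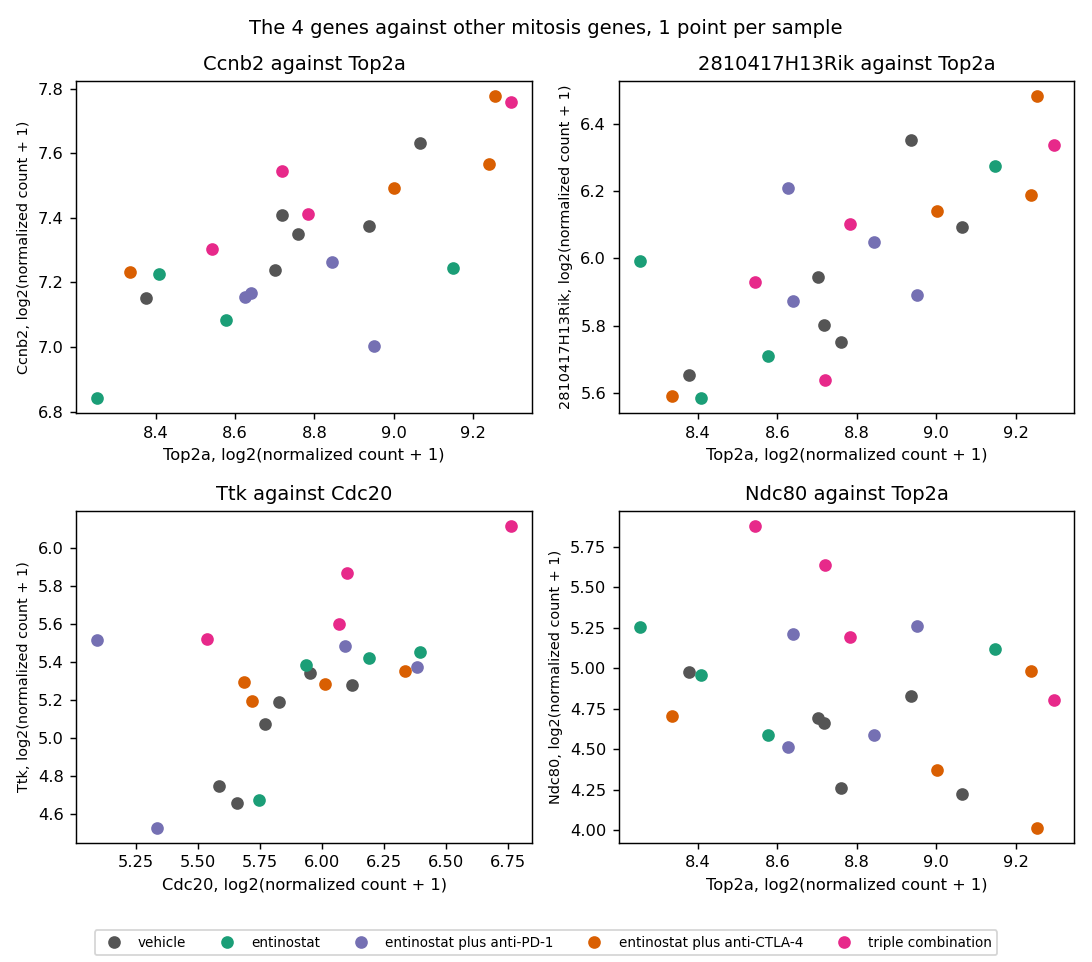
Log2(normalized count + 1) of Ccnb2 and 2810417H13Rik against Top2a, of Ttk against Cdc20 and of Ndc80 against Top2a, 1 point per sample, coloured by group. Ccnb2 and 2810417H13Rik follow Top2a (r of 0.72 and 0.75 over 22 samples), and Ndc80 does not (r of -0.32).

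A search of the 416 other tested genes for the pattern most like each of the 4, by Pearson's r over the 22 samples and with no test, gave different neighbours for each. Top2a (0.72), Kif20a (0.70) and Cdh1 (0.70) were nearest to Ccnb2, and Top2a (0.75), Birc5 (0.67) and Tuba4a (0.66) to 2810417H13Rik. Nearest to Ttk were Tnfsf10 (0.58), Cdc20 (0.57) and Psmb9 (0.57), and nearest to Ndc80 were Tnfrsf11a (0.81), Ear3 (0.79) and Nfatc1 (0.75). By the mean r over the 4 genes the leading genes included Nox4 (0.36), Kif20a (0.33), Top2a (0.31) and Nfyc (0.27), so no gene followed all 4 closely on the deposited scaling. Ccnb2 and 2810417H13Rik, the pair that tracked Top2a, had r = 0.46 with each other (Spearman 0.47, permutation p = 0.0314, adjusted 0.0711).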

How the data were processed

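The authors deposited normalized counts (a linear signal) for 655 endogenous genes, 20 housekeeping genes and the controls of the mouse myeloid panel in 22 G-MDSC samples. How they normalized is not given in the sources used here. Per the submitters' processing notes limma was among the tools, in an unstated version and role. Within each sample 100% of values under 200 could be divided by 1 factor per sample (0.400 to 9.78) to give whole numbers, to within 0.1 count, and these are the barcode counts used. Housekeeping genes had a geometric mean of 172 to 194, so a change in those genes would shift the others. There were 2 column names that stood on 2 columns each, and those samples are called a and b.

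Groups came from the sample titles. The main test was limma 3.58.1 (R 4.3.3) on log2(normalized count + 1) (5 group means, 22 samples, 420 tested genes, 17 residual and 2.14 prior degrees of freedom), with Benjamini-Hochberg adjustment over the 420 genes and two-sided tests. A gene was tested when a group mean of its log2 values exceeded that of 29.3 normalized counts. edgeR 4.0.16 (quasi-likelihood) on the barcode counts was an alternative, and both were tested on simulated data. Single genes were also tested with exact permutation tests, and correlations with 100000 resamples (SciPy 1.17.1). Counting error alone gave 95% intervals (exact Poisson) of 27.5 to 141 normalized counts for Ttk and 15.9 to 114 for Ndc80 in triple combination sample 2, the sample with the least depth.

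The 4 genes, the gene lists and the tests were chosen with earlier results of these data known. Named were the 4 genes, every measured gene of the mitosis and cycle-gating lists, the 3 nearest genes by r to each of the 4, the 5 with the highest mean r, and the 2 most abundant genes of each cell type list. Some genes that this rule names are not reported here. Same-numbered samples deviated together no more than others, so samples were not paired. Alternatives changed the pseudocount (10), filter, scaling, background, tool, weights, cartridge, groups in the fit, epithelial covariate and samples.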

Additional observations from a re-analysis of the deposited data

Results flagged for a closer look

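In 6 of 65 combinations of a gene with a group of 4 to 6 samples, 1 sample stood apart from the rest of its group by Dixon's criterion, which chance gives in about 1 of 20. Ttk in entinostat sample 3 was 24.5 normalized counts, with the nearest other sample at 40.8. Kif20a in entinostat plus anti-CTLA-4 sample a was 120, with the nearest at 183. Cdkn1a was 513 in triple combination sample a (nearest 596) and 738 in entinostat plus anti-PD-1 sample 3 (nearest 898). Btg2 in triple combination sample 4 was 1290 (nearest 997), and Gadd45b in vehicle sample 2 was 1080 (nearest 469).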

How the results depend on the processing

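Of the 4 genes, 1 was called with anti-CTLA-4 added to entinostat and 0 in every other comparison. In that comparison the count was 3 under median centring, quantile normalization and edgeR with TMM factors, 2 under sample weights, 0 with only the groups compared or the epithelial covariate, and 0 to 1 when a sample was left out. In entinostat against vehicle it was 1 under median centring, quantile normalization, TMM factors and sample weights. In the triple combination against vehicle it was 2 under sample weights and 1 with numbered samples only. With anti-PD-1 added to entinostat plus anti-CTLA-4 it was 1 under sample weights, with numbered samples only and without vehicle sample 3 and triple combination sample a, and 0 to 1 with a sample left out (Ndc80, which is not above background in the comparison group, without triple combination sample a or entinostat plus anti-CTLA-4 sample a). Anti-CTLA-4 against anti-PD-1 gave 1 under median centring, quantile normalization, TMM factors, subtraction of the negative controls, sample weights and numbered samples only, and 0 to 1 with a sample left out. Both antibodies added to entinostat gave 1 under sample weights, and the interaction gave 1 under sample weights and with numbered samples only. The test over all groups gave 3 under sample weights, 1 under median centring, quantile normalization, TMM factors, numbered samples only and without vehicle sample 3 and triple combination sample a, and 0 to 2 with a sample left out. The causes of these changes in count were not tested. Of all 420 genes, median centring called 225 and edgeR with TMM factors 230 with anti-CTLA-4 added to entinostat, against 203 in the main test. In entinostat against vehicle these settings called 176 and 189, against 168. In anti-CTLA-4 against anti-PD-1 they called 128 and 150, against 130, and in the test over all groups 143 and 181, against 139. Calls under these settings were thus common over all genes and not particular to the 4. The fit of numbered samples only was added after the data were seen.

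Myc turned to 0.63 (adjusted p = 0.0389) with TMM factors when anti-CTLA-4 was added to entinostat. Median centring reversed the r of Cdc20 with Ccnb2 (to 0.58) and with 2810417H13Rik (to 0.55), of Ttk with the epithelial (to 0.61), neutrophil (to -0.56) and pan-leukocyte means (to -0.57), and of Ndc80 with the same means (to 0.19, -0.16 and -0.10). Counts over all genes moved by more than 1.5 times in entinostat plus anti-PD-1 against vehicle (92 with limma, 33 with edgeR and the deposited scaling), in anti-CTLA-4 against anti-PD-1 (130 and 69), in the test over all groups (139 and 81) and in all entinostat groups against vehicle (3 and 0, with 1 under TMM factors and 5 under median centring).

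Same-numbered samples of different groups had correlations of their deviations from -0.54 to 0.53 (24 pairs, median -0.07, 10 over 0.1), against a median of -0.05 in 76 pairs of different number. With the replicate number as a block, Ccnb2 with anti-CTLA-4 added to entinostat was 0.52 (adjusted p = 0.0498), and the number of the 4 genes called changed in no comparison. Depth limits Ttk, Ndc80 and 2810417H13Rik in triple combination sample 2, at 5 to 7 counts each.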
